A study of Mus musculus with 17 samples.

Results

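Genes of the bone morphogenetic protein (BMP) and transforming growth factor beta (TGF-beta) pathways that act in endothelial cells were described across 17 RNA-seq libraries of microvessels prepared from the cerebral cortex of mice. The 10 genes were chosen by name: the ligands Bmp6 and Tgfb1, the receptors Bmpr2, Acvrl1 and Tgfbr2, the co-receptor Eng, the inhibitory Smads Smad6 and Smad7, and the target genes Id1 and Id3. Each symbol matched 1 row of the deposited table of 42687 genes, and all 10 passed the filter on low counts that kept 18753 genes for testing. The mice were 10 to 11 months old and were wild type (WT) or APP/PS1, a transgenic model of amyloid deposition in Alzheimer's disease. They received gp91-ds-tat, a peptide inhibitor of the NADPH oxidase NOX2, or the control peptide sgp91-ds-tat. Both were injected intraperitoneally at 10 mg/kg every 2 days for 2 weeks, so no group was without a peptide. There were 5 libraries of WT with control peptide, 5 of WT with inhibitor, 2 of APP/PS1 with control peptide and 5 of APP/PS1 with inhibitor. The labels give no sex, strain or batch, and do not say that each library came from a separate mouse, so p-values measure the spread between libraries.

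BMP and TGF-beta ligands bind a pair of type II and type I receptor kinases, which phosphorylate Smad transcription factors. In endothelial cells the type I receptor Acvrl1, with the type II receptor Bmpr2 and the co-receptor endoglin (Eng), carries signals of circulating BMPs to Smads that induce Id1 and Id3. Loss of Eng or Acvrl1 causes hereditary haemorrhagic telangiectasia, a disease of arteriovenous malformations that can affect the brain, and Tgfbr2 in brain vessels is needed for vascular development.

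Total counts were 7316503 to 17862965 per library, with a median of 11342154. The endothelial list was present as labelled: all 10 of its markers had counts in every library, their summed level was 2883 to 5279 CPM (counts scaled to TMM library sizes), and the tight-junction gene Cldn5 was at 155 to 393 CPM. Pericyte markers summed to 1037 to 1763 CPM, but neuronal markers also summed to 2919 to 4782 CPM and oligodendrocyte markers to 1533 to 2658 CPM. The choroid plexus list ranged from 30.3 to 8159 CPM. Levels are therefore those of a mixed preparation, and in bulk RNA fewer cells of a type and less RNA per cell cannot be told apart. App was at 1897 to 3334 CPM in APP/PS1 and 1262 to 2230 in WT, and Prnp, whose promoter is used in such transgenes, was at 682 to 1418 against 301 to 555.

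The promoter windows of RefSeq (GRCm38.p6, 250 bases before to 50 after a start) held 7 of the 10 genes: Eng, Bmpr2, Bmp6, Tgfb1, Tgfbr2, Smad6 and Id3. Acvrl1, Smad7 and Id1 were not matched. They were searched for the letters of 2 Smad binding motifs, the palindromic box GTCTAGAC and the GC-rich box GGCGCC. Both read the same on both strands and do not overlap each other in letters. The palindromic box was in Smad6 alone among the 7 and in 0.213% of the 32851 windows of the same length, and it spans the start, from base -4 to base 4. The GC-rich box was in Bmpr2 alone, from base -105 to base -100, and in 11.9% of all windows; it was also in the first window of Tgfbr1, the type I receptor of TGF-beta, from base -233 to base -228. A match is a description of letters, and no binding was measured. The 30 bases around each match are shown because they place the motif at an inhibitor that BMP signals are known to induce, at a member receptor, and at the receptor whose level differed by genotype below. Capitals mark the motif.
Smad6, chr9:64022045-64022074, minus strand: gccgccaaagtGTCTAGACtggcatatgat
Bmpr2, chr1:59764162-59764191, plus strand: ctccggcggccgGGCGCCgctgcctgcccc
Tgfbr1, chr4:47352977-47353006, plus strand: ggctggagtaaaGGCGCCcagcggtgaggg
The gene with the highest level per length, Eng, held neither motif. Its 250 bases before the start, chr2:32646345-32646594 on the plus strand, are shown for comparison and have a GC content of 62.4%.
Eng: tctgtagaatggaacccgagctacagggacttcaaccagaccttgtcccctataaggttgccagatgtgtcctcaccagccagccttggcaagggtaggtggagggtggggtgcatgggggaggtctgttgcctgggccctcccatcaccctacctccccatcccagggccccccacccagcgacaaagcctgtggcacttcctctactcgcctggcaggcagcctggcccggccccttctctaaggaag

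All 10 genes are protein coding. On GRCm38, in the annotation GENCODE vM21, Eng spans chr2:32646595-32682669 and Id1 chr2:152736251-152737410, and Acvrl1 spans chr15:101128522-101145336. Bmpr2 spans chr1:59763400-59879014, Bmp6 chr13:38345107-38500302 and Tgfb1 chr7:25687002-25705077. Tgfbr2 (chr9:116084293-116175360) and Smad6 (chr9:63953076-64022059) lie on the minus strand, the others on the plus strand. Smad7 spans chr18:75367529-75395935 and Id3 chr4:136143497-136145755.

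The co-receptor, the Id genes and the BMP receptors had the highest levels per length (CPM divided by exon length in kilobases), and the ligands and Smad6 the lowest. Over the 17 libraries Eng averaged 53.4 CPM per kilobase ± 10.3 (SD), Id1 50.7 ± 13.4, Bmpr2 43.1 ± 6.33, Acvrl1 36.7 ± 7.35 and Id3 25.6 ± 6.62. Smad7 averaged 15.7 ± 2.06 CPM per kilobase, Tgfbr2 14.7 ± 2.86, Bmp6 9.29 ± 3.28, Tgfb1 6.01 ± 1.67 and Smad6 5.83 ± 1.58. The ranges of each pair of neighbours in this order overlapped. Acvrl1 was above Id3, and Id3 above Smad7, in 17 of 17 libraries, whereas Eng was above Id1 in 11 and Tgfb1 above Smad6 in 8. Spread between libraries was smallest for Smad7, with a coefficient of variation of 13.1%, and Bmpr2, with 14.7%. Bmp6 varied most, with 35.3% and a highest level 4.57-fold above the lowest.

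No member passed the test for genotype or peptide. With edgeR's quasi-likelihood F test and adjustment over all 18753 genes by the Benjamini-Hochberg method, 0 of the 10 passed 0.05 between APP/PS1 and WT over both peptides, where 0.587% of all genes passed. In APP/PS1 against WT with control peptide 0 of 10 passed, beside 0.0533% of all genes, and with inhibitor 0 of 10, beside 0.181%. For inhibitor against control peptide over both genotypes, in WT and in APP/PS1, 0 of 10 passed in each, beside 0% of all genes, and the same counts held for the interaction, which compares the effect of the inhibitor in APP/PS1 with that in WT. The number of members with an unadjusted p under 0.05 was also 0 in all 7 comparisons, and DESeq2 called 0 members. The smallest unadjusted p by edgeR was 0.146, for Tgfb1 between genotypes over both peptides (adjusted p = 0.905).

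The main fit does bound the size of a change. Its 95% intervals of all 10 members lay within a 2-fold change in either direction in each genotype and inhibitor comparison, and those of 7 of 10 did in the interaction. The bound does not extend to the alternatives. By genotype over both peptides Id3 was at -0.85 ± 0.25 (log2, SE) with a microglia covariate. With inhibitor in WT Bmp6 was at 0.61 ± 0.22 without replicate 4 of WT with control peptide. The median log2 change of the 10 members was 0.04 by genotype over both peptides and 0.07 by inhibitor over both genotypes, beside medians of 0.00 over all genes tested. In the interaction 9 of 10 members were below 0, with a median of -0.14 beside 0.00 over all genes, and the smallest unadjusted p of a member by edgeR was 0.427. That count was 5 of 10 without replicate 2 of APP/PS1 with control peptide, 6 without replicate 1 of APP/PS1 with inhibitor, 4 with an endothelial covariate and 2 with a microglia covariate. The members share libraries, so these signs are not independent of each other.

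**Figure D1:**
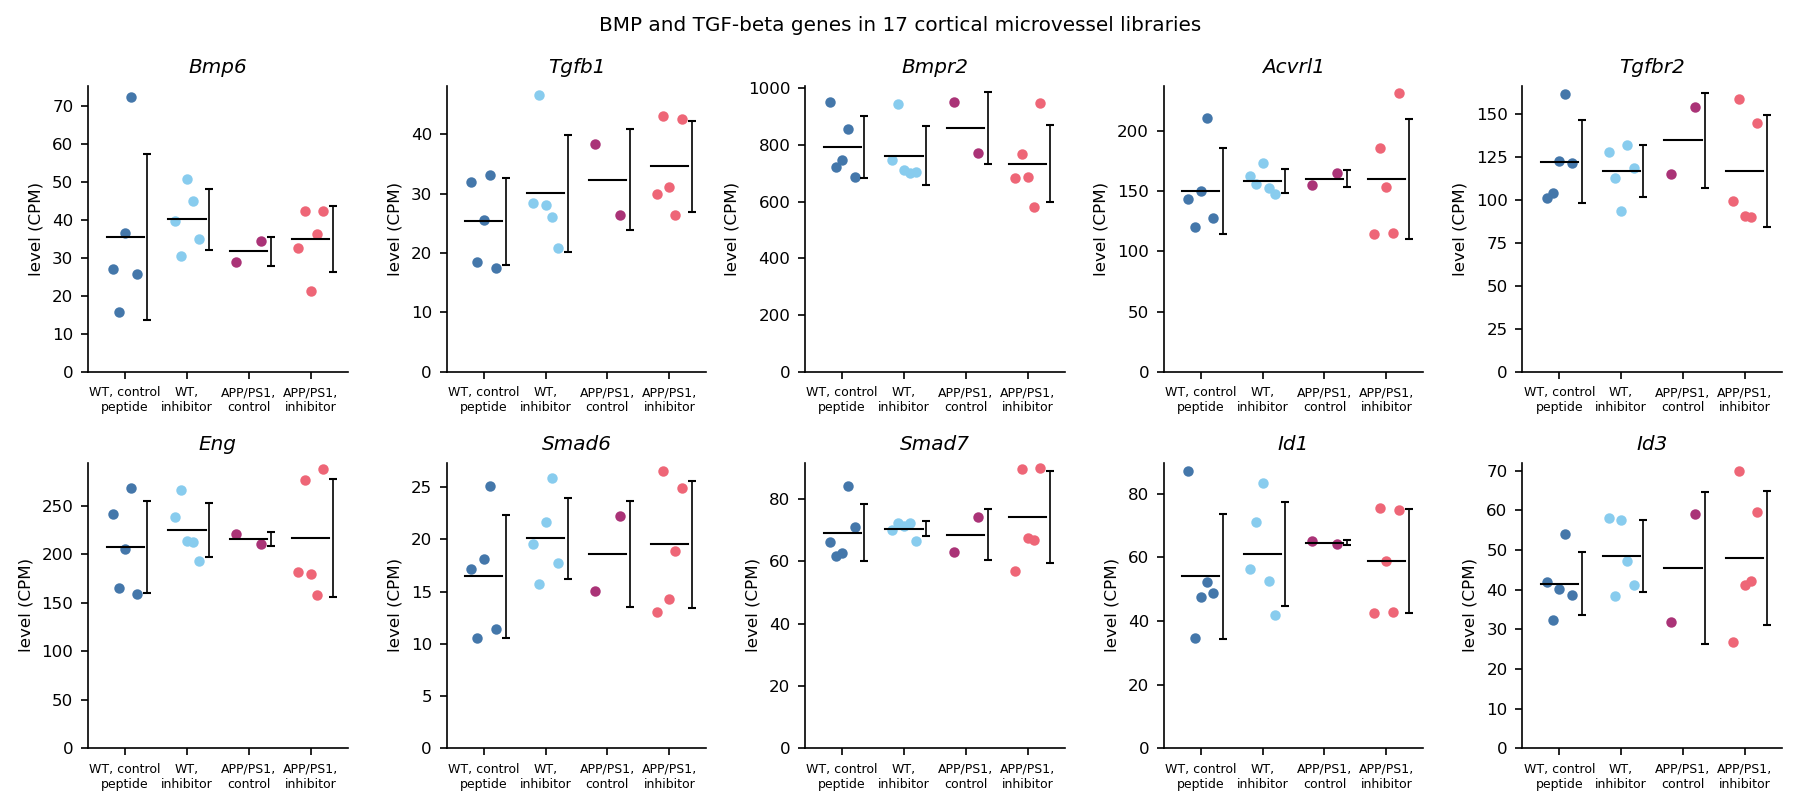
Levels of the 10 members (CPM on TMM-scaled library sizes, axes from 0) in the 4 groups; each point is a library, the horizontal line the group mean and the bar the SD (n = 5, 5, 2 and 5). In every panel the ranges of the groups overlap, and Bmp6 in WT with control peptide spans 15.8 to 72.3 CPM.

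Of the ligands, Bmp6 is a BMP that liver endothelial cells make to control iron balance, and it was the most variable member. Its levels were 27.1, 15.8, 36.5, 72.3 and 25.6 CPM in WT with control peptide, 39.6, 30.4, 50.7, 44.8 and 34.9 in WT with inhibitor, 29.0 and 34.4 in APP/PS1 with control peptide, and 32.5, 42.4, 21.2, 36.4 and 42.4 in APP/PS1 with inhibitor. The highest and the lowest of the 17 libraries were both WT with control peptide, replicates 4 and 2, and the other groups lay inside that range. Bmp6 differed by -0.18 ± 0.22 (log2, SE) between APP/PS1 and WT, by 0.17 ± 0.29 with inhibitor in WT and by 0.15 ± 0.38 with inhibitor in APP/PS1. The value in WT rested on replicates of the control peptide group: without replicate 2 it was -0.01, and without replicate 4 it was 0.61 ± 0.22 (edgeR, unadjusted p = 0.0124, adjusted p = 1.00). Replicate 4 also had the highest level of the choroid plexus gene Ttr, 7381 CPM against a median of 1960. With the choroid plexus score as a covariate, chosen after seeing the data, Bmp6 differed by 0.23 ± 0.26 with inhibitor in WT and by 0.00 ± 0.34 in APP/PS1 (edgeR adjusted p = 1.00 for each).

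Tgfb1, the TGF-beta ligand that is secreted in a latent form and activated in the matrix, was at 32.0, 18.4, 25.5, 33.2 and 17.5 CPM in WT with control peptide, 28.5, 46.7, 28.1, 26.1 and 20.8 in WT with inhibitor, 38.4 and 26.4 in APP/PS1 with control peptide, and 29.9, 43.0, 31.2, 26.5 and 42.5 in APP/PS1 with inhibitor. All 7 APP/PS1 libraries were at 26.4 CPM or more, but so were 5 of the 10 WT libraries, so the genotypes overlap. The genotype difference over both peptides was 0.26 ± 0.17 (log2, SE), an interval of 0.935-fold to 1.53-fold. The highest level was in replicate 2 of WT with inhibitor, the library in which the endothelial selectins Sele (27.7 CPM) and Selp (10.8) were far above every other library (at most 1.57 and 1.16). Without it the genotype difference of Tgfb1 was 0.39 ± 0.15 (edgeR, unadjusted p = 0.0182, adjusted p = 0.408). Microglia markers were also higher in APP/PS1, as given below with the marker scores that Tgfb1 followed. Which cells made Tgfb1 was not tested.

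Bmpr2, the type II receptor for BMPs, had the highest counts of the members and a very long transcript. It was at 951, 723, 747, 858 and 686 CPM in WT with control peptide, 748, 945, 712, 702 and 704 in WT with inhibitor, 951 and 772 in APP/PS1 with control peptide, and 683, 767, 689, 583 and 949 in APP/PS1 with inhibitor. Each group had 1 library at 945 to 951 CPM and the others between 583 and 858. Bmpr2 differed by 0.01 ± 0.11 (log2, SE) between genotypes and by -0.23 ± 0.18 with inhibitor in APP/PS1. Without replicate 1 of APP/PS1 with control peptide the second value was -0.07, and without replicate 2 it was -0.37.

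Acvrl1, the endothelial type I receptor of the BMP branch, was at 143, 119.8, 150.2, 210.4 and 128 CPM in WT with control peptide, 162, 156, 173, 153 and 148 in WT with inhibitor, 155 and 165 in APP/PS1 with control peptide, and 114, 186, 154, 115 and 231 in APP/PS1 with inhibitor. Eng, its co-receptor, was at 241, 165, 206, 268 and 159 CPM in WT with control peptide, 239, 266, 214, 213 and 193 in WT with inhibitor, 220.4 and 211 in APP/PS1 with control peptide, and 182, 276, 179, 158 and 288 in APP/PS1 with inhibitor. For both genes APP/PS1 with inhibitor held the highest and the lowest library, and its replicates 2 and 5 stood above the other 3. Between genotypes Acvrl1 differed by 0.04 ± 0.13 and Eng by -0.02 ± 0.13 (log2, SE). Intervals ran from 0.849-fold to 1.25-fold for Acvrl1 and from 0.817-fold to 1.20-fold for Eng.

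Tgfbr2, the type II receptor for TGF-beta, was at 101, 104, 123, 161 and 122 CPM in WT with control peptide, 128, 113, 93.5, 132 and 119 in WT with inhibitor, 115 and 154 in APP/PS1 with control peptide, and 99.3, 159, 90.8, 90.3 and 145 in APP/PS1 with inhibitor. The same replicates 2 and 5 were again the high ones of APP/PS1 with inhibitor. Tgfbr2 differed by 0.05 ± 0.13 (log2, SE) between genotypes and by -0.20 ± 0.22 with inhibitor in APP/PS1. The second value was -0.40 without replicate 1 of APP/PS1 with control peptide and 0.02 without replicate 2.

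Smad6, an inhibitory Smad that acts mainly on BMP receptors, was at 17.2, 10.6, 18.1, 25.1 and 11.4 CPM in WT with control peptide, 19.5, 15.7, 21.6, 25.9 and 17.8 in WT with inhibitor, 15.0 and 22.2 in APP/PS1 with control peptide, and 13.1, 26.6, 14.3, 18.9 and 24.9 in APP/PS1 with inhibitor. It is the gene whose start carries the palindromic box printed above. Smad7, which inhibits both branches, was at 66.0, 61.8, 62.6, 84.1 and 71.0 CPM in WT with control peptide, 70.1, 72.3, 71.2, 72.1 and 66.4 in WT with inhibitor, 62.8 and 74.3 in APP/PS1 with control peptide, and 57.0, 89.6, 67.5, 66.9 and 90.0 in APP/PS1 with inhibitor. In WT with inhibitor the 5 values of Smad7 lay within 66.4 to 72.3, while replicates 2 and 5 of APP/PS1 with inhibitor were the highest of all 17. Smad6 differed by 0.28 ± 0.24 (log2, SE) with inhibitor in WT and by 0.04 ± 0.18 between genotypes. The genotype interval of Smad7 was the narrowest of the 10 members, from 0.901-fold to 1.18-fold, around a log2 difference of 0.04 ± 0.09.

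Id1, a helix-loop-helix inhibitor and direct BMP target, was at 87.1, 34.8, 47.4, 52.3 and 48.8 CPM in WT with control peptide, 56.4, 70.9, 83.2, 52.6 and 41.8 in WT with inhibitor, 65.1 and 64.0 in APP/PS1 with control peptide, and 42.4, 75.6, 59.0, 42.7 and 74.7 in APP/PS1 with inhibitor. Id3, its close relative, was at 41.9, 32.4, 40.2, 54.1 and 38.7 CPM in WT with control peptide, 58.1, 38.3, 57.5, 47.2 and 41.1 in WT with inhibitor, 32.0 and 59.0 in APP/PS1 with control peptide, and 26.7, 69.9, 41.3, 42.2 and 59.7 in APP/PS1 with inhibitor. The highest and lowest libraries of Id1 were both WT with control peptide, and those of Id3 both APP/PS1 with inhibitor. Id1 differed by 0.06 ± 0.18 (log2, SE) between genotypes, by 0.17 ± 0.23 with inhibitor in WT and by -0.13 ± 0.30 with inhibitor in APP/PS1. Its interaction, -0.30 ± 0.37, was the one farthest from 0 of the 10 members and had an interval of 0.472-fold to 1.39-fold. It was -0.55 without replicate 1 of WT with control peptide, and -0.13 with the microglia score as a covariate. Id3 differed by 0.04 ± 0.17 between genotypes and by 0.22 ± 0.22 with inhibitor in WT.

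**Figure D2:**
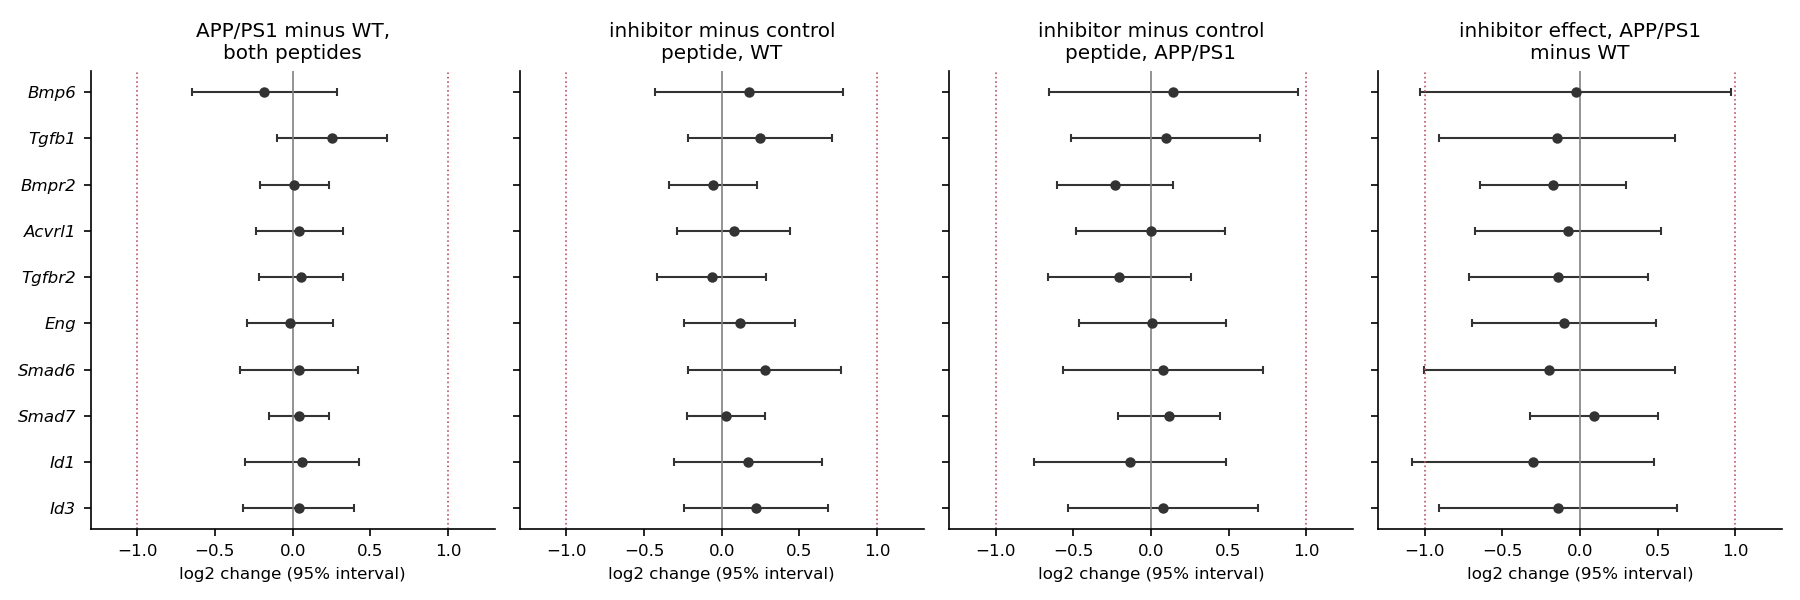
Log2 change of each member in 4 comparisons with its 95% interval (edgeR, all 17 libraries); dotted lines mark a 2-fold change. Every interval includes 0, and intervals reach past 2-fold only in the interaction, for Bmp6, Smad6 and Id1.

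Members varied together from library to library, along with endothelial markers. The endothelial score was the mean log2 CPM of 10 endothelial markers, none of them a member, and ran from 7.84 to 8.68. Eng followed it with a Pearson r of 0.91 (Spearman rho 0.88, n = 17, permutation p = 1e-05 for each, the smallest that 100000 resamples can give, adjusted p = 1e-04 over 10 relations). Without the 2 libraries farthest from the median, r was 0.88, and with group means removed 0.92. Bmp6 had an r of 0.68 with the score (rho 0.65, adjusted permutation p = 0.00542 and 0.0127) and 0.54 without the 2 farthest libraries. Id1 had an r of 0.60 (rho 0.59, adjusted permutation p = 0.0230 and 0.0235). With group means removed the r of Id1 was 0.59 and its adjusted permutation p 0.0522, and in the family of 154 relations below the adjusted permutation p was 0.0555 and 0.0611. The libraries share scaling and composition, and the scores of endothelial and pericyte markers moved together (r = 0.91, rho 0.87, n = 17, permutation p = 1e-05 and 3e-05; 0.89 without the 2 farthest libraries).

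Compared with all 11192 genes at 10 CPM or more, which had a median r of 0.07 with the endothelial score, Eng was above 99.8% and Acvrl1 above 99.7%. Tgfbr2, Smad7, Smad6 and Id3 were above 95.6% to 97.5% of genes, and Bmp6 above 90.4%. Id1, Bmpr2 and Tgfb1 were lower in that order, above 86.1%, 85.7% and 84.2%. Eng and Acvrl1 headed the members, while Bmpr2, the receptor with which they act, and Tgfb1 were last. This ranking was chosen after seeing the data.

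**Figure D3:**
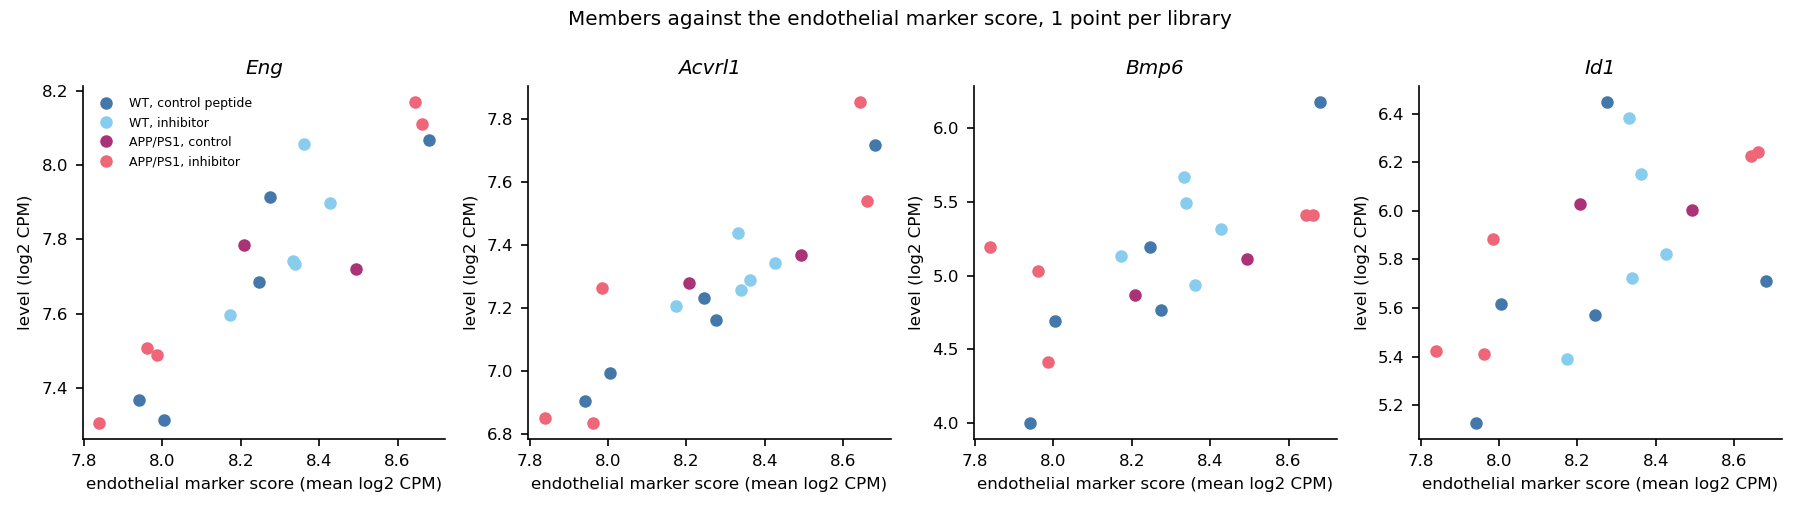
Levels of Eng, Acvrl1, Bmp6 and Id1 (log2 CPM) against the endothelial marker score (mean log2 CPM of 10 markers), with 1 point per library coloured by group. Eng (r = 0.91) and Acvrl1 (r = 0.91) follow the score closely, and libraries of every group lie along the same band; Bmp6 (r = 0.68) and Id1 (r = 0.60) scatter more.

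Pairs of members were related in the same way. Eng and Acvrl1 had an r of 0.84 (rho 0.80, adjusted permutation p = 2e-04 and 8e-04; 0.77 without the 2 farthest libraries), and Smad6 and Smad7 an r of 0.72 (rho 0.73, adjusted permutation p = 0.00360 and 0.00430; 0.82 without them). Within genotypes, the second of these was 0.56 in the 10 WT and 0.93 in the 7 APP/PS1 libraries. Id1 and Id3, the targets, passed by r and not by rho: r was 0.54 (rho 0.50, adjusted permutation p = 0.0404 and 0.0570), 0.55 without the 2 farthest libraries and 0.53 with group means removed, where the adjusted permutation p was 0.0522. Id1 with Smad7 passed by rho and not by r (r = 0.50, rho 0.53, adjusted permutation p = 0.0511 and 0.0454). Id1 passed by neither with Smad6 (r = 0.47, rho 0.39, adjusted permutation p = 0.0652 and 0.131) or the ligand Bmp6 (r = 0.28, rho 0.21, adjusted permutation p = 0.269 and 0.426). Without the 2 libraries farthest from the median of Id1 these 3 were 0.57, 0.39 and 0.15. Without the 2 farthest in Smad7, Smad6 or Bmp6 instead they were 0.34, 0.25 and 0.13.

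Over all 45 pairs, a family added after seeing the data, every r was positive. They ran from 0.10 for Bmpr2 with Bmp6 to 0.84, with a median of 0.60. An adjusted permutation p under 0.05 was found for 31 by r and for 26 by rho. The share of pairs of other genes that would pass was not computed. Whether members vary together more than other genes do was therefore not tested. Smad7 and Id3 (r = 0.84, rho 0.77) and Bmp6 and Smad6 (r = 0.84, rho 0.88) were as close as Eng and Acvrl1, each with an adjusted permutation p of 3e-04 for r, and of 0.00322 and 0.000675 for rho. Without the 2 farthest libraries these pairs were at 0.78 and 0.79. Once each gene's regression on the endothelial score was taken out, 25 of the 45 were positive and the median was 0.03. Bmp6 with Smad6 was then at 0.67, Smad7 with Id3 at 0.57 and Eng with Acvrl1 at 0.06. The highest of the 45 was 0.81, for Eng with Tgfb1, and the lowest -0.71, for Tgfbr2 with Id1.

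Scores of other cell types were compared with the members in the same way, as a family of 154 relations added after seeing the data. By both Pearson and Spearman tests (permutation, adjusted over the family) the endothelial score passed for 7 of 10 members, the fibroblast for 6, the pericyte for 3, the astrocyte and perivascular macrophage for 1 each, and the other 9 scores for 0. The share of all genes that would pass with each score was not computed, so these counts are not set against other genes. The counts also depended on the measure. By Pearson r alone they were 8 for fibroblast, 7 for endothelial, 6 for pericyte and 3 for smooth muscle, and by Spearman rho alone 6, 8, 4 and 0. Bmp6 and Smad6 were closest to fibroblast markers (r = 0.82 and 0.86, rho 0.76 and 0.82, adjusted permutation p = 0.000770 for each r, 0.00910 and 0.00257 for rho), with 0.75 and 0.76 without the 2 farthest libraries. Tgfbr2 was closest to pericyte markers (r = 0.88, rho 0.84, adjusted permutation p = 0.000924 and 0.000770, with r 0.83 without the 2 farthest). Id1 was closest to perivascular macrophage markers (r = 0.77, rho 0.70, adjusted permutation p = 0.00308 and 0.0187, with r 0.65 without the 2 farthest). Which list was closest to Smad6 and Id1 depended on the libraries. Without the 2 farthest in each score, Smad6 was at 0.89 with the endothelial score. Id1 was then at 0.74 with the endothelial acute phase score, 0.72 with erythroid and 0.66 with endothelial. With the neuron score Bmpr2 passed by r and not by rho (r = 0.63, rho 0.47, adjusted permutation p = 0.0436 and 0.164; 0.57 without the 2 farthest). Fibroblast and endothelial scores were themselves related (r = 0.79, rho 0.82, n = 17, permutation p = 0.000220 and 5e-05; 0.83 without the 2 farthest), so these lists are not independent of each other.

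**Figure D4:**
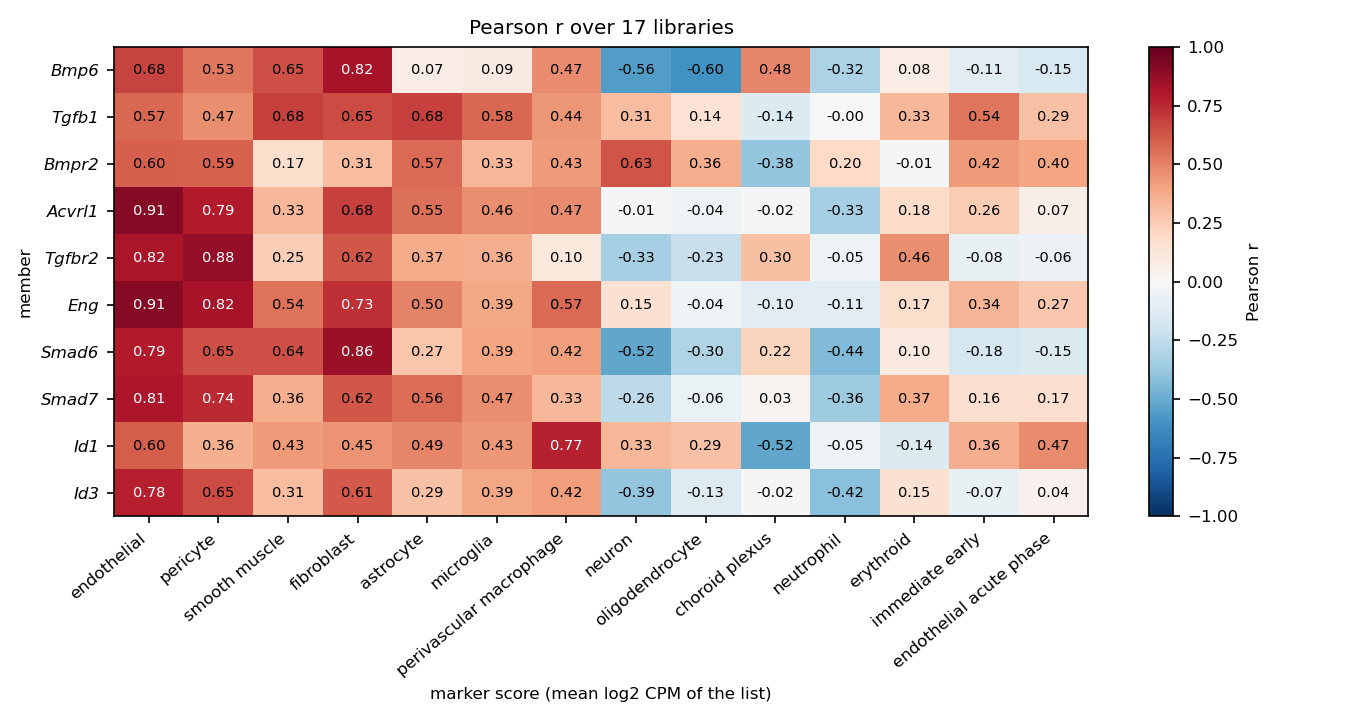
Pearson r over 17 libraries between each member (rows, log2 CPM) and 14 marker scores (columns, mean log2 CPM of a list). The endothelial, pericyte, smooth muscle, fibroblast, astrocyte, microglia and perivascular macrophage columns are positive for all 10 members. Bmp6 and Smad6 are negative with neuron markers (-0.56 and -0.52).

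The genes whose levels were most like those of 3 members were found among the 11191 other genes at 10 CPM or more, by Pearson r over the 17 libraries. For Eng they were Jcad (0.95), Crip2 (0.95), Gnb1 (0.95), Mapk3 (0.94) and Rhoa (0.94). For Bmp6 they were Dstn (0.93), Kank2 (0.93), Bmp7 (0.93), Rest (0.91) and Ddr2 (0.91), so another BMP ligand was among the 5. For Id1 they were Ahnak (0.90), Eif3h (0.89), Lifr (0.88), Zcchc24 (0.88) and Serinc3 (0.88). These values are descriptions, as they were picked as the highest.

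The rest of the pathway was read from a list of 50 genes. Of these 48 were tested; the circulating ligands of Acvrl1, Bmp10 and Gdf2, had totals of 2 and 0 counts over all libraries. Between genotypes over both peptides 1 of 48 passed, higher in APP/PS1, and 0 passed lower, and the median log2 change was 0.03 beside 0.00 over all genes. An unadjusted p under 0.05 by edgeR was found for 7 of 48 there, beside 6.38% of all genes. In the other 6 comparisons 0 of 48 passed. With control peptide 3 of 48 and with inhibitor 2 of 48 had an unadjusted p under 0.05 by genotype, beside 3.97% and 3.38% of all genes. For the inhibitor it was 1 of 48 in APP/PS1, beside 1.80%, and 0 of 48 in WT, over both genotypes and in the interaction, beside 1.34%, 2.11% and 0.843%. By group, the 8 tested ligands, 6 Smads, 13 inhibitors, 7 activators of latent TGF-beta and 6 targets had 0 passing in each comparison.

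The gene that passed was Tgfbr1, the type I receptor that pairs with Tgfbr2. Its levels were 57.3, 43.8, 43.9, 63.7 and 41.0 CPM in WT with control peptide, 53.1, 56.7, 50.7, 57.4 and 43.2 in WT with inhibitor, 75.6 and 70.4 in APP/PS1 with control peptide, and 66.5, 71.2, 64.7, 65.8 and 77.4 in APP/PS1 with inhibitor. All 7 APP/PS1 libraries were above all 10 WT libraries, but the gap was narrow, from 63.7 to 64.7 CPM. The share of all genes that separate this way was not computed. Tgfbr1 was named because it passed on these same levels, so the separation is not a second line of support. The log2 difference was 0.46 ± 0.09 (SE, edgeR adjusted p = 0.0142). It was 0.55 ± 0.15 with control peptide (adjusted p = 0.452) and 0.40 ± 0.12 with inhibitor (adjusted p = 0.453), and -0.14 ± 0.19 for the interaction (adjusted p = 1.00). Its partner Tgfbr2 differed by 0.05 ± 0.13; the difference between the 2 genes was not tested. The call was lost without replicate 1 of APP/PS1 with control peptide (0.43, edgeR adjusted p = 0.0716) and without replicate 2 (0.45, adjusted p = 0.0597).

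Microglia markers, and 1 of 6 astrocyte markers, moved with Tgfbr1. Of 6 microglia markers, 4 passed higher in APP/PS1 over both peptides, with a median log2 change of 0.66, and their summed level was 171 to 238 CPM in WT and 205 to 385 in APP/PS1. Across libraries Tgfbr1 had an r of 0.83 with the microglia score (rho 0.89, adjusted permutation p = 0.00154 and 0.000770 in the family of 154; 0.81 without the 2 farthest libraries, 0.47 with group means removed), and of 0.37 with the endothelial score (rho 0.32, adjusted permutation p = 0.293 and 0.347; 0.48 without the 2 farthest). With the astrocyte score its r was 0.75 (rho 0.70, adjusted permutation p = 0.00517 and 0.0187; 0.65 without the 2 farthest), and with the fibroblast score 0.61 (rho 0.61, adjusted permutation p = 0.0478 and 0.0583; 0.38 without them). With group means removed the order differed. The r of Tgfbr1 was then 0.70 with the fibroblast score, 0.67 with endothelial, 0.64 with smooth muscle and 0.50 with astrocyte, against 0.47 with microglia. With the microglia score as a covariate, chosen after seeing the data, Tgfbr1 differed by 0.19 ± 0.15 (edgeR adjusted p = 0.521). Tgfb1 had an r of 0.58 with the microglia score (rho 0.64, adjusted permutation p = 0.0280 and 0.0127 in the family of 10; 0.66 without the 2 farthest libraries). In the family of 154 the same relation had an adjusted permutation p of 0.0661 for r and 0.0423 for rho, and with group means removed 0.0522 for r in the family of 10. Tgfb1 was closer to the astrocyte score (r = 0.68, rho 0.67, adjusted permutation p = 0.0191 and 0.0340 in the family of 154, with r 0.59 without the 2 farthest). With smooth muscle (r = 0.68, rho 0.55) and fibroblast scores (r = 0.65, rho 0.57) it passed by r and not by rho (adjusted permutation p = 0.0191 and 0.0335 for r, 0.0936 and 0.0796 for rho). The part of microglia or astrocytes in either result was not tested beyond these values.

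**Figure D5:**
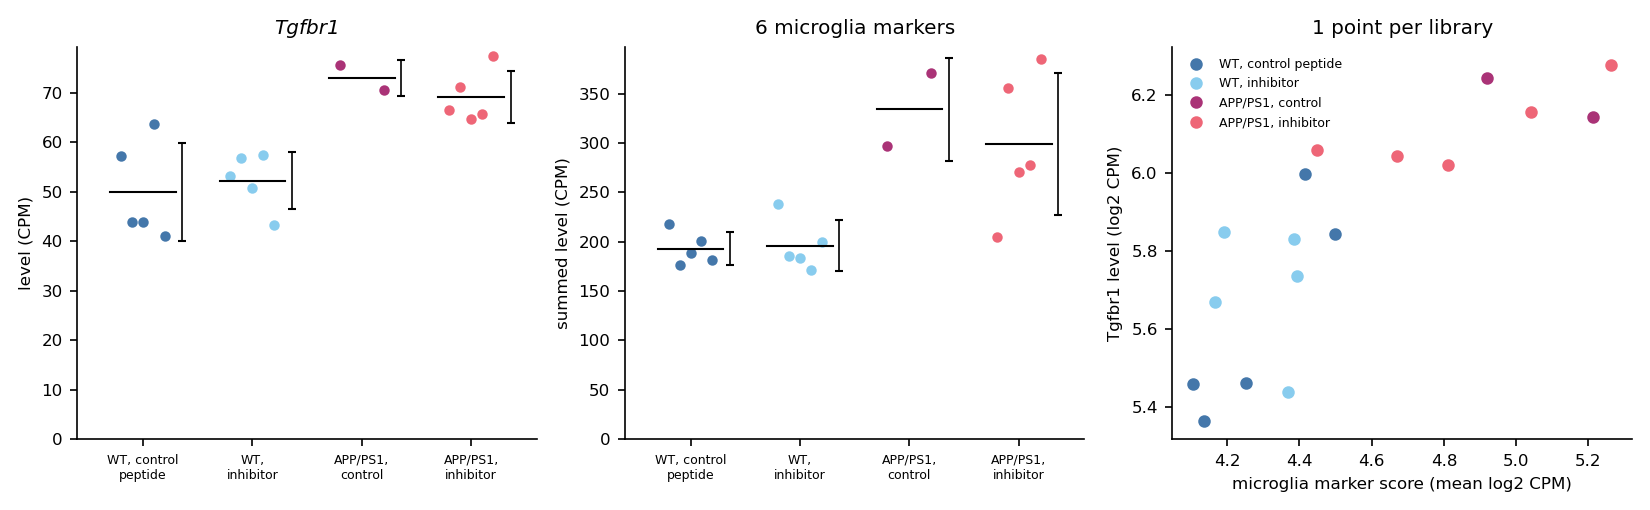
Tgfbr1 (left) and the summed level of 6 microglia markers (middle) by group in CPM, with a point per library, the mean as a line and the SD as a bar, and Tgfbr1 against the microglia score in log2 CPM (right). The 7 APP/PS1 libraries of Tgfbr1 lie between 64.7 and 77.4 CPM, above the 41.0 to 63.7 CPM of WT.

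The same covariate moved the members themselves. With it, all 10 log2 differences by genotype over both peptides were below 0, and 8 had an unadjusted p under 0.05, beside 17.7% of all genes and a median of -0.01 over all genes. Eng was at -0.69 ± 0.17, Acvrl1 at -0.67 ± 0.17 and Id3 at -0.85 ± 0.25 (SE). After adjustment 0 of 10 passed, beside 8 of all 18753 genes, and the smallest adjusted p by edgeR was 0.0794, for Eng. The microglia score itself was higher in APP/PS1, as its summed levels above show, and the SE of Eng without the covariate was 0.13. Within groups the microglia score moved with the endothelial markers. With group means removed its r was 0.79 with the endothelial score and 0.78 with Eng (0.40 and 0.39 without that step). Whether the members were lower in APP/PS1 apart from this relation was not tested. With the endothelial score as a covariate 0 of 10 passed as well. By genotype over both peptides 1 of 10 then had an unadjusted p under 0.05 by edgeR, beside 8.92% of all genes.

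Other pathway genes are named as those with the smallest p in a comparison, and none of them passed. Itgav, an integrin subunit that activates latent TGF-beta, was at 219.9 CPM ± 21.6 (SD) in WT with control peptide, 204 ± 27.7 in WT with inhibitor, 233 ± 18.4 in APP/PS1 with control peptide and 196 ± 28.3 in APP/PS1 with inhibitor. Its inhibitor difference over both genotypes was -0.16 ± 0.09 (log2, SE, edgeR unadjusted p = 0.0813). Bmper, a secreted BMP-binding protein, was in APP/PS1 at 14.2 CPM ± 0.12 (SD, n = 2) for the control peptide and 10.2 ± 2.00 (n = 5) for the inhibitor, a log2 difference of -0.49 ± 0.22 (SE, edgeR unadjusted p = 0.0399, adjusted p = 1.00). Its interaction was -0.51 ± 0.28 (edgeR unadjusted p = 0.0843). Id2, another gene of the Id family, was at 26.7 CPM ± 1.82 and 24.8 ± 2.06 (SD, n = 5 each) in WT with control peptide and inhibitor, a log2 difference of -0.11 ± 0.10 (SE, edgeR unadjusted p = 0.282).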

How the data were processed

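The authors deposited a table of raw read counts per Ensembl gene. Per the labels' protocols, RNA came from cortical microvessels pelleted through dextran, was depleted of ribosomal RNA and was made into libraries with a stranded mRNA kit. The submitters' processing notes name cutadapt, STAR, HTSeq and DESeq2 and the builds mm10 and GRCh37. Their versions, roles and parameters, the annotation and the use of strand in counting are not given in the sources used here, so reads of overlapping and antisense genes cannot be told apart. Whole-table columns were matched to samples by title; 20 columns matched no sample and were not used. Symbols for 42250 of 42687 IDs came from GENCODE vM21, as did exon lengths (GRCm38); 437 had none. The label SC was read as the control peptide and NOX2 as the inhibitor. All 136 pairs of libraries differed, with a chi-square of 5.04 to 84.3 times its degrees of freedom between libraries of a group.

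Counts were filtered with filterByExpr, scaled by TMM and tested with edgeR 4.0.16 (quasi-likelihood F test, R 4.3.3), two-sided, with p-values adjusted by the Benjamini-Hochberg method over 18753 genes and a threshold of 0.05. The model had 1 mean per group, or an additive genotype and peptide term for effects over both levels; all 17 libraries entered each fit. The fits were tested on simulated data. Log2 CPM used a prior count of 2. Standard errors came from the change and its F statistic. Correlations used two-sided permutation tests with 100000 resamples (numpy 2.4.6, with ranks from scipy 1.17.1). Depth sets the counting precision: 3 counts correspond to 0.174 to 0.390 CPM.

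The members, the pathway and marker lists and the tests were chosen with earlier results of these data known. Named genes are the members, each pathway gene that passed or had the smallest p in a comparison, and the 5 genes most like Eng, Bmp6 and Id1. The alternatives were DESeq2 size factors in edgeR, DESeq2 1.42.0, no filter, only the groups compared, an endothelial covariate, leaving out each library and, added after seeing the data, choroid plexus and microglia covariates. Sequences are from RefSeq (GRCm38.p6).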

Additional observations from a re-analysis of the deposited data

Results flagged for a closer look

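Bmpr2 in replicate 2 of WT with inhibitor stood apart from its group: it was at 945 CPM, and the other 4 libraries were at 702 to 748 CPM. Its gap to the nearest library was 0.786 of the range of the group, above the critical value of 0.71 for 5 libraries. Of 33 groups of 5 libraries checked this way 1 was past that value, and chance gives 1.65. Levels of Bmpr2 near this one also occurred in 1 library of each other group, and this library had the highest Tgfb1, Sele and Selp of the 17.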

How the results depend on the processing

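Over 1650 values of the members under the alternatives, 0 were called and 25 had an unadjusted p under 0.05, 21 of them with the microglia covariate. The number of members called was 0 under every alternative in each of the 7 comparisons. The number of other pathway genes called by genotype over both peptides was 1, and 0 with the microglia covariate; leaving out each library gave 0 to 1. For genotype with inhibitor it was 0, and 1 with the endothelial covariate (Tgfbr1, 0.45, edgeR adjusted p = 0.0481). With group means removed, 3 relations no longer passed, each with an adjusted permutation p of 0.0522: Id1 with Id3 (r = 0.53), Tgfb1 with microglia (r = 0.53) and Id1 with endothelial markers (r = 0.59). Id1 with Smad7 passed without the 2 libraries farthest in Id1 (r = 0.57, adjusted permutation p = 0.0434). Without the 2 farthest in Smad7 its r was 0.34, so this depended on the gene used. The cause of these shifts was not tested.

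Over all genes, 110 were called by genotype over both peptides, 182 by DESeq2, 8 with the microglia covariate and 70 to 125 without 1 library, the fewest without replicate 2 of APP/PS1 with control peptide. With control peptide 10 were called, 45 by DESeq2, 16 with the endothelial and 1 with the microglia covariate, and 4 to 17 without 1 library. With inhibitor 34 were called, 61 by DESeq2, 57 with the endothelial and 2 with the microglia covariate, and 15 to 38 without 1 library. No paired analysis was possible because the labels give no replicate numbers that groups share. APP/PS1 with control peptide has 2 libraries, which limits its comparisons; with 1 left out, the lone library is assumed to vary like the other groups. The lowest count of a member in a library was 101.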
